A study of Rattus norvegicus with 11 samples.

Results

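Severe intracerebral hemorrhage was compared with common hemorrhage across all genes of the striatum, in both directions. The 3 severe (IS) and 3 common (IC) rats were 6 of the 11 rats sequenced, and the genes were all those of the count table that passed a filter on low counts, 15742 of 30560. All animals were adult male Sprague-Dawley rats, and one RNA library per rat was made from striatum collected on day 3, on the injected side in the hemorrhage groups. Common hemorrhage was induced with 0.2 U of bacterial collagenase VII-S in 1 μL of saline, and severe hemorrhage with 0.6 U in 3 μL, injected at the same site of the right striatum under isoflurane. The 3 IS-HA rats received the severe dose and had 150 μL of the hematoma withdrawn after 6 h, and the 2 Normal rats had no injection. These 5 rats entered the model fit but not the comparison. Dose and injected volume differ together between IC and IS and cannot be told apart, no rat injected with saline alone was analysed here, and rats of the severe model that died before day 3 could not be sampled.

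Collagenase digests the collagen of the vascular basement membrane, so that blood escapes into the tissue and a hematoma forms within hours. Hemoglobin, heme and iron are then released, neutrophils and monocytes enter from the blood, and resident microglia, astrocytes and vessels respond over the following days. The striatum consists mainly of inhibitory medium spiny neurons, with smaller numbers of cholinergic and inhibitory interneurons. In bulk tissue, fewer cells of a type and less RNA per cell cannot be told apart.

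With an adjusted p under 0.05 and an absolute log2 fold change above 1, 0 genes were higher and 0 genes were lower in IS among the 15742 genes tested by the quasi-likelihood test of edgeR, with p adjusted after Benjamini and Hochberg. The smallest adjusted p was 0.143. At an unadjusted p under 0.05, 530 genes (3.37%) were higher and 810 genes (5.15%) were lower beyond the same fold, and 10.5% and 11.7% of genes at any fold. This count depended on 1 rat outside the comparison. Without IS-HA replicate 2, which is in neither group compared but enters the filter on low counts, the scaling and the estimate of the spread, edgeR called 348 genes higher (2.19%) and 616 genes lower (3.87%) at the adjusted threshold. With all rats, DESeq2's Wald test called 256 higher (1.63%) and 347 lower (2.2%), of which 225 and 337 were also among the calls made without that rat. The voom method of limma, with a quality weight per rat, called 338 higher (2.15%) and 442 lower (2.81%), and edgeR without the whole IS-HA group called 181 higher (1.15%) and 411 lower (2.61%). The fit of only the IC and IS rats called 0 in either direction.

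Genes were also ranked by rats that did not overlap. All 3 IS rats were above all 3 IC rats in 3023 genes (19.2%), and all 3 IS rats were below all 3 IC rats in 2941 genes (18.7%), by read counts scaled to library size (CPM) and normalized with the TMM method of edgeR. With a log2 fold change beyond 1, 556 of these genes were higher and 874 lower, and beyond 2 the numbers were 60 and 100. An exact permutation test of 3 rats against 3 cannot give a two-sided p below 0.1, so that a single gene without overlap is no test result by itself. All shares without overlap given for gene groups below are to be read against 19.2% and 18.7%. These background shares varied with gene length. They were 31.9% above and 7.84% below among the 3151 shortest genes, and 6.80% and 35.6% among the 3149 longest. The shares of the gene groups were not matched for length.

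The libraries differed in depth between the groups, with 10819057 to 18817645 counts assigned to genes in IC and 7448205 to 10958581 in IS, and 3 counts correspond to 0.159 to 0.403 CPM in these 6 rats. Thinned to the smallest library, the data gave 533 genes higher and 750 lower at an unadjusted p under 0.05 beyond the same fold, and 0 by adjusted p. On the first principal component of the 6 rats, which held 61.3% of the variance of the 1000 most variable genes, IC and IS rats separated, with IC replicate 2 and IS replicate 4 at the ends. Without IS replicate 4 the unadjusted counts were 279 higher and 455 lower, and without IC replicate 2 they were 279 and 474.

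**Figure D1:**
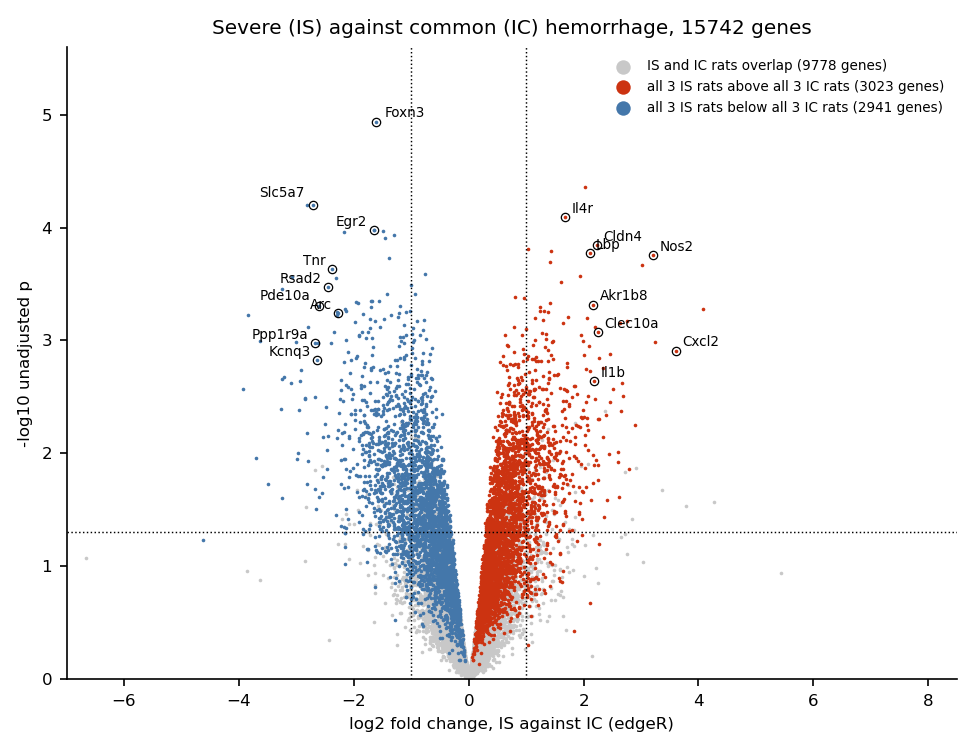
Log2 fold change of IS against IC (x axis) and -log10 of the unadjusted p of edgeR (y axis) for the 15742 genes tested, with colors for genes whose rats do not overlap and dotted lines at a log2 fold change of 1 and -1 and a p of 0.05. The 3023 genes with all IS rats higher and the 2941 with all IS rats lower form arms of similar size.

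Single genes are described from those with a symbol, a mean of at least 5 CPM over the 6 rats, no overlap and an unadjusted p under 0.05. The largest log2 fold change among them was that of Cxcl2 (ENSRNOG00000002792), a chemokine that attracts neutrophils. It stood at 0.197, 1.01 and 3.79 CPM in IC replicates 2, 3 and 4 and at 8.39, 28.3 and 20.8 CPM in IS replicates 2, 3 and 4. The lowest IS rat was above the highest IC rat, the log2 fold change was 3.61 (SE 0.81), and both Normal rats were at 0. Cxcl3 (ENSRNOG00000028043), a second ligand of the same receptor, had 0.393, 1.21 and 3.22 CPM in IC and 3.41, 16.9 and 11.8 CPM in IS, where the lowest IS rat was barely above the highest IC rat. Its log2 fold change was 2.79 (SE 0.94). Cxcr2 (ENSRNOG00000063618), the receptor of both on neutrophils, had 1.44, 3.22 and 3.60 CPM in IC and 12.8, 8.18 and 10.6 CPM in IS, with a log2 fold change of 1.94 (SE 0.37).

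Nos2 (ENSRNOG00000057443) ranked next after Cxcl2 by fold and encodes inducible nitric oxide synthase. Its levels were 0.786, 0.907 and 1.99 CPM in the IC rats and 4.20, 15.9 and 13.1 CPM in the IS rats, with the gap between groups wider than the spread within IC and a log2 fold change of 3.21 (SE 0.58). Il1b (ENSRNOG00000004649), the cytokine interleukin 1 beta, was at 1.90, 4.03 and 2.74 CPM in IC and at 6.47, 14.0 and 19.5 CPM in IS (log2 fold change 2.18, SE 0.55). Ccl3 (ENSRNOG00000011205), a chemokine for monocytes and other leukocytes, was at 4.45, 8.21 and 8.05 and 18.6, 36.7 and 40.3 CPM in the same order (log2 fold change 2.20, SE 0.48). In each of these genes IS replicate 2 was the lowest of the severe rats.

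Several of the remaining top genes are known from macrophages. Clec10a (ENSRNOG00000018715), the macrophage galactose-type lectin, was at 9.30, 21.3 and 20.4 CPM in IC and 58.4, 41.1 and 143 CPM in IS, with a log2 fold change of 2.25 (SE 0.49). Pla2g2d (ENSRNOG00000016826), a secreted phospholipase, had 1.57, 3.38 and 2.46 CPM in IC and 5.86, 3.77 and 37.9 CPM in IS, so that its log2 fold change of 2.65 (SE 0.73) rested largely on IS replicate 4. Akr1b8 (ENSRNOG00000027433), an aldo-keto reductase, had a wide gap between groups, with 7.93, 8.62 and 11.3 CPM in IC against 37.6, 53.9 and 33.3 CPM in IS (log2 fold change 2.17, SE 0.44). Ms4a4a, a membrane protein of macrophages, and Pirb, an inhibitory receptor of myeloid cells, had log2 fold changes of 2.06 (SE 0.44) and 2.04 (SE 0.55). The other genes among the 15 highest were Cldn4, a tight junction claudin (2.23), Ly6c, a monocyte surface protein (2.16), Mgst2, a microsomal glutathione S-transferase (2.16), Lbp, the binding protein of lipopolysaccharide (2.11), and S100a9, a subunit of calprotectin (2.06).

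The adjusted p of the 15 highest genes ran from 0.143 to 0.174 in edgeR's test. Without IS-HA replicate 2, 15 of these 15 had an adjusted p under 0.05 in edgeR, and 14 did in DESeq2 and 14 in voom. Of all genes, 6.38% were called higher at any fold without that rat and 2.98% in DESeq2. The 15 were chosen by fold and p in the same rats, so that their passing is a description. The IS-HA mean lay between the IC and IS means in 13 of the 15 highest genes and 14 of the 15 lowest, described below. That is a description too, since the genes were ranked by the difference between IC and IS.

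By the size of p rather than fold, the leading gene with a symbol among the higher ones was Il4r (ENSRNOG00000015441), the receptor chain for interleukins 4 and 13. Its levels were 45.2, 86.9 and 73.8 CPM in IC and 213, 188 and 256 CPM in IS, so that the gap between the groups was wider than the range within IC, with a log2 fold change of 1.67 (SE 0.28). Lyve1 (ENSRNOG00000063592), a hyaluronan receptor of lymphatic vessels and perivascular macrophages, held 10.8, 15.5 and 11.4 CPM in IC and 32.5, 34.8 and 35.1 CPM in IS, so that the IS rats differed from each other by less than 3 CPM. Efhd2 (ENSRNOG00000013783), a calcium-binding protein of immune cells, had 99.1, 118 and 115 CPM in IC and 250.1, 196 and 231 CPM in IS (log2 fold change 1.03, SE 0.18). Cldn4, Lbp, Nos2 and Cxcr2 were again among the 10 smallest p, with Oscar, a receptor of myeloid cells (1.61), Ier5, an immediate early gene (0.81), and Cxcl16, a membrane-bound chemokine and scavenger receptor (0.96), the values in parentheses being log2 fold changes.

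**Figure D2:**
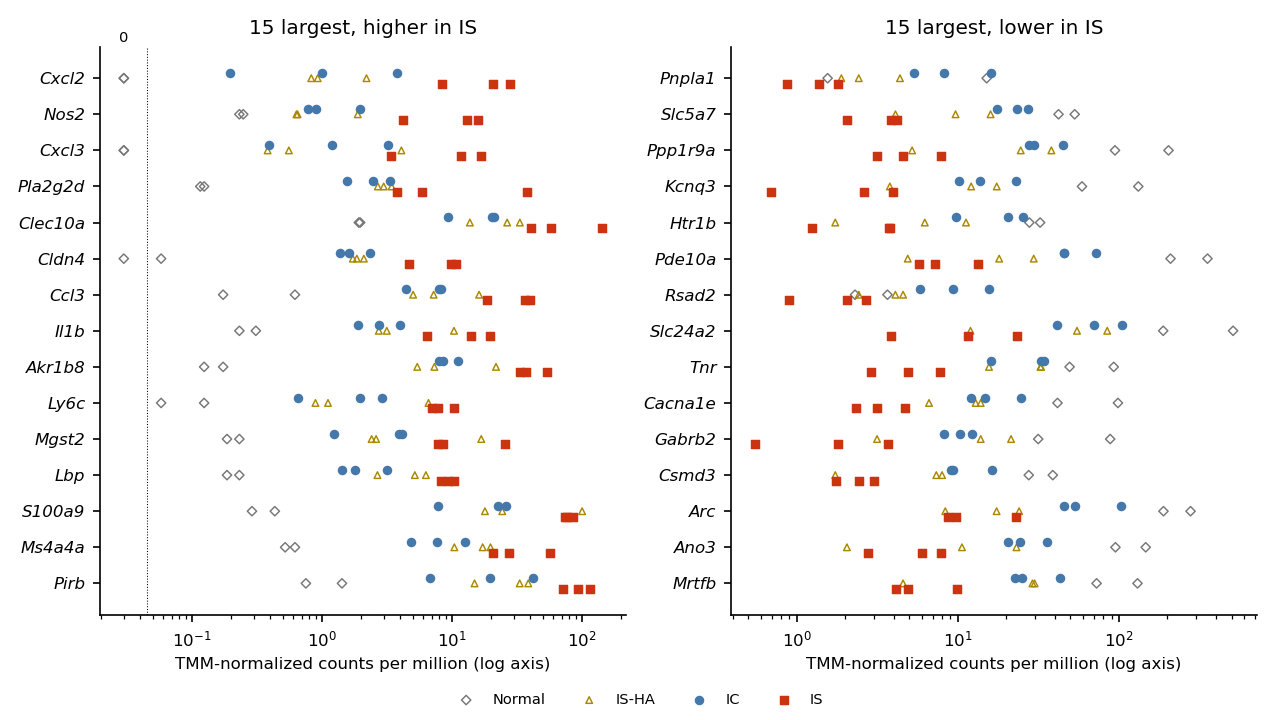
TMM-normalized CPM (log axis) in each rat for the 15 genes with the largest log2 fold change in each direction, with filled symbols for IC and IS and open symbols for IS-HA and Normal, and points left of the dotted line at 0. IS squares lie right of all IC circles in the left panel and left of them in the right panel, while the spread within IS reaches a factor of several for genes such as Pla2g2d and Gabrb2.

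In the opposite direction, many of the lowest genes are known from neurons. Slc5a7 (ENSRNOG00000010597), the high-affinity choline transporter of cholinergic neurons, was at 27.1, 17.6 and 23.4 CPM in IC and at 3.85, 4.22 and 2.07 CPM in IS. Each IS rat stood well below each IC rat, and the log2 fold change was -2.72 (SE 0.43). Chat (ENSRNOG00000025012), the enzyme that makes acetylcholine, had 9.43, 8.01 and 11.2 CPM in IC and 1.84, 5.48 and 1.51 CPM in IS (log2 fold change -1.66, SE 0.40). Ache (ENSRNOG00000050841), the enzyme that breaks it down, had 43.4, 34.3 and 51.2 CPM in IC and 17.8, 21.9 and 12.3 CPM in IS (log2 fold change -1.30, SE 0.22). For these 3 genes of acetylcholine metabolism and transport the IC and IS rats did not overlap.

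Pde10a (ENSRNOG00000011310), a phosphodiesterase enriched in medium spiny neurons, was at 71.7, 45.6 and 45.3 CPM in IC and at 7.26, 13.3 and 5.78 CPM in IS, a log2 fold change of -2.61 (SE 0.54). Kcnq3 (ENSRNOG00000005206), a potassium channel subunit of the M-current, stood at 23.1, 13.7 and 10.2 CPM in IC and at 3.94, 2.61 and 0.688 CPM in IS (log2 fold change -2.64, SE 0.63). Ppp1r9a (ENSRNOG00000008869), the actin-binding neurabin of dendritic spines, stood at 44.7, 29.7 and 27.5 CPM in IC and at 7.87, 4.58 and 3.17 CPM in IS (log2 fold change -2.68, SE 0.61). In all 3 genes IS replicate 4 was the lowest rat. The remaining neuronal members of the 15 were Htr1b, a serotonin receptor (-2.62), Slc24a2, a sodium/calcium/potassium exchanger (-2.45), Cacna1e, a calcium channel (-2.31), Gabrb2, a GABA-A receptor subunit (-2.29), Arc, an activity-regulated gene of synapses (-2.28), and Ano3 (-2.25) and Csmd3 (-2.29).

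Some of the lowest genes were not neuronal markers. Pnpla1 (ENSRNOG00000028622), of the patatin-like phospholipase family, had the lowest log2 fold change under the same conditions, -2.85 (SE 0.76), with 8.25, 5.34 and 16.0 CPM in IC and 0.874, 1.80 and 1.38 CPM in IS, while the Normal rats were at 1.56 and 15.1 CPM. Rsad2 (ENSRNOG00000007539), the antiviral interferon-induced viperin, was at 9.37, 15.7 and 5.87 CPM in IC and at 2.71, 0.899 and 2.07 CPM in IS, and the Normal rats, at 2.30 and 3.66 CPM, were near the IS level. Tnr (ENSRNOG00000002468), the matrix protein tenascin-R of perineuronal nets and oligodendrocytes, had 32.6, 34.2 and 16.2 CPM in IC and 7.78, 4.94 and 2.89 CPM in IS (log2 fold change -2.39, SE 0.45). Mrtfb, a coactivator of serum response factor, had a log2 fold change of -2.24 (SE 0.60). The adjusted p of the 15 lowest genes ran from 0.143 to 0.156 in edgeR's test, and 15 of 15 were under 0.05 without IS-HA replicate 2, against 14 in DESeq2 and 13 in voom. Of all genes, 7.71% were called lower at any fold without that rat and 3.21% in DESeq2. These 15 were likewise chosen by fold and p in the same rats.

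The smallest p of all genes tested belonged to Foxn3 (ENSRNOG00000004709), a forkhead transcriptional repressor, at 18.7, 20.4 and 16.8 CPM in IC and at 7.43, 5.66 and 5.09 CPM in IS. The spread within each group was narrow and the log2 fold change was -1.61 (SE 0.21). Egr2 (ENSRNOG00000000640), a zinc finger transcription factor of the early growth response family, had 10.5, 14.9 and 20.3 CPM in IC and 3.85, 5.21 and 5.51 CPM in IS (log2 fold change -1.65, SE 0.28). Sv2c (ENSRNOG00000018094), a synaptic vesicle protein abundant in the basal ganglia, had 12.4, 8.57 and 8.05 CPM in IC and 2.01, 2.25 and 2.20 CPM in IS (log2 fold change -2.16, SE 0.37). Strip2 (-1.50), Usp29, a deubiquitinase (-1.38), Mllt6 (-0.76) and the RNA Mir100hgl (-1.46) completed the 10 smallest p on this side, with Slc5a7, Tnr and Ache. Dcc (ENSRNOG00000033099), a netrin receptor of growing axons, was too low for these conditions, at 7.01, 4.08 and 3.98 CPM in IC and 0.962, 0.449 and 0.688 CPM in IS, and was among the 10 smallest p of DESeq2 on this side.

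Promoters are shown for a pair of genes higher in IS, the chemokine Cxcl2 and the cytokine Il1b, and a pair lower, the cholinergic genes Slc5a7 and Chat. Chat was not among the 15 lowest genes. Each is given as the 250 bases before the gene start in RefSeq's rat assembly GRCr8, 5′ to 3′ on the strand of the gene. Capitals mark matches to 5 motifs searched on both strands, AP-1 (TGANTCA), the consensus of NF-kB, the antioxidant response element (TGACNNNGC), the cyclic AMP response element (TGACGTCA) and the early growth response motif (GCGNGGGCG). The AP-1 and antioxidant motifs both begin with TGA, so that a stretch can match both.
Cxcl2 (chr14:17467256-17467505, minus strand): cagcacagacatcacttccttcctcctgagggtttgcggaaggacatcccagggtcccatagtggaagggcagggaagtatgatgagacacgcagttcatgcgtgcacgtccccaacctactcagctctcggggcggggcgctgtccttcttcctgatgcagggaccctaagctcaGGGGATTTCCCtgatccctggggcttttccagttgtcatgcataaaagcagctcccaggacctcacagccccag
Il1b (chr3:137036582-137036831, minus strand): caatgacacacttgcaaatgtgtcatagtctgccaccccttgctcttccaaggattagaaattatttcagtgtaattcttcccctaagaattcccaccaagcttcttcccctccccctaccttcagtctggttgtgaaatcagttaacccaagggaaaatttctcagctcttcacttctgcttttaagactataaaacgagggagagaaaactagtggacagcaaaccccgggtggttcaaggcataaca
Slc5a7 (chr9:7953510-7953759, minus strand): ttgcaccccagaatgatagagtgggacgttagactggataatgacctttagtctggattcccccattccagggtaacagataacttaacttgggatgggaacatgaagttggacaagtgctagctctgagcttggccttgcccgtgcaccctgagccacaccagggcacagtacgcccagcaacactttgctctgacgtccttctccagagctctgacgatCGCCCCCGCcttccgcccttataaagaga
Chat (chr16:7723417-7723666, minus strand): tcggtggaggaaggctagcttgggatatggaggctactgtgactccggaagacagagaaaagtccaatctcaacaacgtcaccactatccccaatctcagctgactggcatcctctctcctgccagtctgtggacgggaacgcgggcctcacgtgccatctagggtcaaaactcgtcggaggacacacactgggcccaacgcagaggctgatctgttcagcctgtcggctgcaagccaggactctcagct
The Cxcl2 window held 2 NF-kB matches that overlap each other, 74 to 64 bases before the gene start, and 6.33% of the 33469 promoter windows of the table held at least 1. The Slc5a7 window held 1 early growth response match, 29 to 21 bases before the start and on the opposite strand, a motif found in 4.29% of windows. The windows of Il1b and Chat held none of the 5. Of the 15 highest genes 7, and of the 15 lowest 11, had a window in the table. Among these, Pirb also held an antioxidant match and Mrtfb an early growth response match. These matches describe letters and were not read as binding sites.

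Functions were ranked by the median log2 fold change of 54 gene lists. Over all genes tested, 7860 had a log2 fold change above 0 and 7882 below, so that the median was close to 0. By this measure neutrophil markers, most of them under 10 counts in at least 1 rat, ranked first and striatal medium spiny neuron markers last. Beside each median stands, where it differs by more than 0.1, the median after a correction for gene length, as shorter genes tended to be higher and longer genes lower in IS. Shares without overlap above were also larger among abundant genes, from 11.7% of the 3149 genes lowest in CPM to 25.6% of the highest. In edgeR's test with all rats 0 members of any list had an adjusted p under 0.05. Without IS-HA replicate 2, 1015 genes were higher (6.38%) and 1226 lower (7.71%) at any fold, and the largest numbers of members called higher then were 29 of 66 ribosomal protein genes, 10 of 25 proliferation genes and 10 of 17 annexin and S100 genes. Members called lower were 15 of 25 scaffold genes, 14 of 25 glutamate and GABA receptors and 10 of 22 medium spiny neuron markers. In DESeq2 with all rats, 1 ribosomal, 6 proliferation, 6 annexin and S100, 6 scaffold, 9 receptor and 10 medium spiny neuron genes had an adjusted p under 0.05 in the same directions, against 2.98% higher and 3.21% lower of all genes at any fold.

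**Figure D3:**
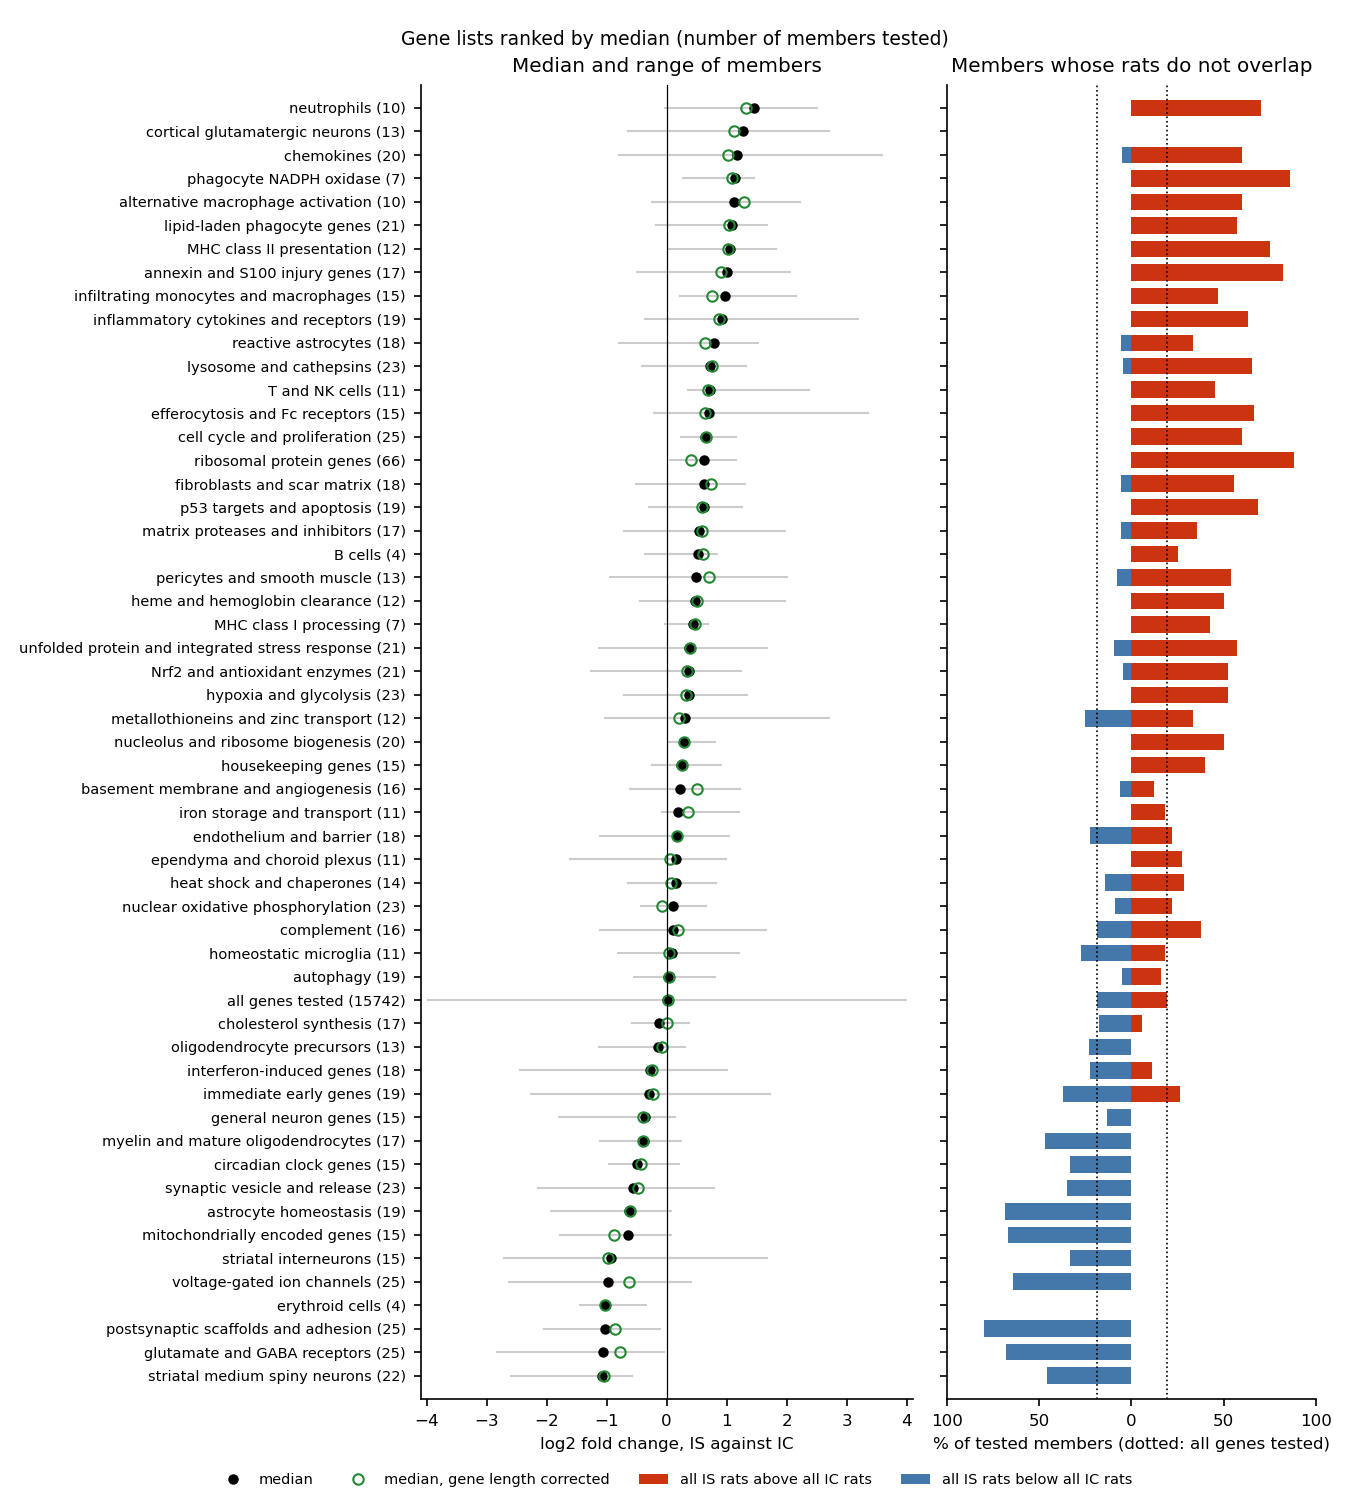
Left, median log2 fold change of IS against IC (filled points), its value after gene length correction (open points) and the range of members (lines, clipped at 4 and -4) for each gene list, with the number of members tested in parentheses. Right, percentage of tested members with all IS rats above or below all IC rats, with dotted lines at the 19.2% and 18.7% of all genes, which lists of leukocyte genes exceed on one side and lists of synaptic genes on the other.

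Among 10 tested neutrophil genes, 7 had all IS rats above all IC rats and the median was 1.46 (1.32 with length correction). In limma on log2(TPM + 1) the median was 0.97. The 2 members with at least 10 counts in every rat, the Normal rats included, had a median of 0.40. Relative to the IC mean, the mean log2 level of the list was -3.73 in the Normal rats. Il1r2, a decoy receptor for interleukin 1 on neutrophils, was at 0.590, 0.907 and 1.99 CPM in IC and at 6.91, 7.46 and 4.96 CPM in IS (log2 fold change 2.52, SE 0.65). S100a9 was at 7.86, 26.3 and 22.6 CPM in IC and at 85.2, 74.8 and 77.6 CPM in IS, and its calprotectin partner S100a8 had a log2 fold change of 1.92 (SE 0.79). The mean log2 level of the list relative to the IC mean was -0.60, 0.29 and 0.31 in the IC rats and 1.24, 1.22 and 1.28 in the IS rats, a spread within IS far smaller than the distance between groups. Mmp8, the neutrophil collagenase, overlapped (log2 fold change -0.04).

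Chemokines and their receptors had 12 of 20 genes above and 1 below, with a median of 1.17 (1.02 with length correction), and 0.10 over the 5 members with at least 10 counts in every rat. Ccl2, the main chemokine for Ccr2-bearing monocytes, was at 15.9, 57.7 and 33.4 CPM in IC and at 72.9, 67.9 and 124 CPM in IS (log2 fold change 1.30, SE 0.43). The member below was Cxcl10, an interferon-induced chemokine for T cells, at 6.03, 6.05 and 4.73 CPM in IC and 3.76, 2.52 and 3.30 CPM in IS. Cx3cl1, the neuronal ligand of microglia, overlapped (log2 fold change -0.75, SE 0.32). Inflammatory cytokines and receptors had 12 of 19 above and 0 below (median 0.93, 0.57 over the 9 members with at least 10 counts in every rat), from Nos2 at the top to Ptgs2, cyclooxygenase 2, at -0.38. Csf3, the growth factor of neutrophils, ranked second in it by fold, at 0.197, 0.202 and 0.379 CPM in IC and 1.31, 1.35 and 2.62 CPM in IS. Its IC values were near the 3-count level.

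The phagocyte NADPH oxidase, which makes superoxide, had 6 of its 7 genes above and a median of 1.13, which was 0.71 without IS replicate 4. Its membrane subunit Cyba was at 37.0, 73.5 and 76.8 CPM in IC and 109.9, 124 and 284 CPM in IS (log2 fold change 1.47, SE 0.58). Cybb, the catalytic partner of Cyba, overlapped, at 22.0, 45.4 and 35.5 CPM in IC and 39.5, 23.1 and 61.1 CPM in IS. The cytosolic subunit Ncf1 was at 121, 262 and 232 CPM in IC and 291, 282 and 994 CPM in IS, so that only IS replicate 4 was far from the highest IC rat.

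Genes of alternative macrophage activation had 6 of 10 above and 0 below, with a median of 1.13 (1.28 with length correction). Arg1, arginase 1, which competes with Nos2 for arginine, was at 19.1, 28.1 and 41.8 CPM in IC and at 75.8, 75.9 and 201 CPM in IS (log2 fold change 1.99, SE 0.45). Mrc1, the mannose receptor, was at 19.8, 32.0 and 25.0 and 61.0, 38.0 and 93.6 CPM, with a log2 fold change of 1.32 (SE 0.30). Nos2 and Arg1, often used as markers of opposed macrophage states, were both higher in all 3 IS rats.

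Genes of lipid-laden phagocytes had 12 of 21 above (median 1.10, 0.58 without IS replicate 4). Spp1, osteopontin, was at 1008, 3721 and 2303 CPM in IC and at 4478, 4533 and 11919 CPM in IS (log2 fold change 1.57, SE 0.56), and Fabp4, a fatty acid binding protein, had a log2 fold change of 1.69 (SE 0.54). Apoe, the lipid carrier, had 4533, 7145 and 8917 CPM in IC and 8969.6, 9586 and 25944 CPM in IS, where replicates 2 and 3 were close to the highest IC rat. Lysosomal genes had 15 of 23 above and 1 below (median 0.72, 0.37 without IS replicate 4), with Lgmn, the lysosomal protease legumain, at 395, 671 and 645 CPM in IC and 1131, 1165 and 2034 CPM in IS. The member below was Scarb2, a lysosomal membrane protein (-0.43).

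MHC class II presentation had 9 of 12 genes above and 0 below (median 1.05, 0.62 without IS replicate 4). RT1-Db1, a class II beta chain, was at 7.80, 13.4 and 15.5 CPM in IC and 22.7, 26.8 and 82.7 CPM in IS (log2 fold change 1.85, SE 0.57). Cd74, the invariant chain, was at 79.0, 179 and 170.5 CPM in IC and at 214, 255 and 736 CPM in IS (log2 fold change 1.49, SE 0.61). As with Ncf1 and Apoe, IS replicate 4 was far above the other severe rats. Class I processing genes other than the proteasome had 3 of 7 above (median 0.44, 0.26 without IS replicate 4), led by the peptide transporter subunit Tap2 (0.70, SE 0.24).

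Annexin and S100 genes, which code for calcium-binding proteins of injured and inflamed tissue, had 14 of 17 above, one of the highest shares (median 1.01). Anxa2 was at 53.7, 110.3 and 87.7 CPM in IC and at 200.4, 206 and 335 CPM in IS (log2 fold change 1.56, SE 0.39), whereas S100b, made mainly by astrocytes, overlapped (-0.51). Monocyte and macrophage markers had 7 of 15 above (median 0.97, 0.76 with length correction). Ccr2, the receptor that brings monocytes out of the blood, overlapped, at 2.42, 6.75 and 5.02 CPM in IC and 9.44, 5.84 and 11.7 CPM in IS. Efferocytosis and Fc receptor genes had 10 of 15 above (median 0.71), with the Fc receptor Fcgr2a at a log2 fold change of 1.15 (SE 0.37). Vsig4, a complement receptor of resident macrophages, had the highest log2 fold change of this list, 3.37 (SE 1.23), but overlapped at 0.197, 2.27 and 0 CPM in IC and 2.36, 1.62 and 24.9 CPM in IS. T and NK cell markers had 5 of 11 above (median 0.72, 0.29 in limma on log2(TPM + 1)), with Cd2 at 0.524, 1.41 and 0.663 CPM in IC and 3.41, 4.13 and 6.75 CPM in IS, while Cd3e, a subunit of the T cell receptor complex, overlapped at 0.852, 1.01 and 0.568 and 1.31, 1.35 and 0.964 CPM. Cd8a, known as a coreceptor of cytotoxic T cells, was at 23.0, 74.0 and 53.6 CPM in IC and 95.7, 106 and 305 CPM in IS. These levels were far above those of Cd3e in every rat compared. The cells that Cd8a came from were not tested, and it was not read as a measure of T cells. Of the 4 B cell genes tested only Blnk, an adaptor of B cell signaling, was above (0.76, SE 0.36).

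The lists of homeostatic microglia, complement and the interferon response had members on both sides. Of 11 homeostatic microglia genes 2 were above (18.2%, close to all genes) and 3 below (27.3%). Their median of 0.09 turned to -0.016 without IC replicate 2 and to -0.21 with at least 10 counts in every rat. P2ry12, the purinergic receptor that marks resting microglia, was at 104, 60.6 and 91.7 CPM in IC and at 59.3, 57.3 and 44.6 CPM in IS (log2 fold change -0.67, SE 0.25), with the highest IS rat just under the lowest IC rat. Tmem119 overlapped by 1 pair of rats (log2 fold change -0.74, SE 0.25). The list mean was 0.15, -0.06 and -0.09 in the IC rats and -0.10, -0.08 and -0.13 in the IS rats.

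Of 16 complement genes 6 were above (37.5%) and 3 below (18.8%, close to all genes). C1qa, which with its partners starts the classical pathway and is made by macrophages and microglia, was at 299.8, 335 and 487 CPM in IC and 574, 683 and 721 CPM in IS (log2 fold change 0.82, SE 0.35). C3, the central component, went the other way, with 85.0, 73.0 and 75.6 CPM in IC and 22.6, 41.3 and 43.8 CPM in IS (log2 fold change -1.12, SE 0.25). Cfd, the serine protease factor D, was at 9.37, 14.9 and 19.6 CPM in IC and 31.0, 20.5 and 89.2 CPM in IS.

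Interferon-induced genes had 2 of 18 above (11.1%) and 4 below (22.2%, close to all genes). Their median of -0.28 was 0.14 without IC replicate 3, so that its direction rested on that rat. Mx1, an antiviral GTPase, was at 21.3, 64.4 and 19.6 CPM in IC, where replicate 3 stood apart, and at 17.9, 9.53 and 11.4 CPM in IS. Ifit3 and Oasl, of the same response, were on the other side, with Ifit3 at 7.73, 9.73 and 6.53 CPM in IC and 14.4, 15.8 and 12.5 CPM in IS.

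Proliferation genes had 15 of 25 members above and 0 below (median 0.64), and all 25 had a log2 fold change above 0. Ube2c, a ubiquitin-conjugating enzyme of mitotic exit, was at 12.0, 18.6 and 16.6 CPM in IC and at 34.3, 29.9 and 42.8 CPM in IS (log2 fold change 1.18, SE 0.28), whereas the marker Mki67 overlapped, at 50.7, 97.0 and 56.6 CPM in IC and 86.9, 74.4 and 86.3 CPM in IS. Genes of p53 and apoptosis had 13 of 19 above (median 0.62). The cell cycle inhibitor Cdkn1a was at 16.0, 28.7 and 23.9 CPM in IC and at 50.7, 56.4 and 59.5 CPM in IS (log2 fold change 1.28, SE 0.28).

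Ribosomal protein genes had the largest share without overlap of the lists ranked, 58 of 66 above (87.9%). They are short, with a median length of 1082 bases against 2985 for all genes tested, and their median of 0.63 was 0.40 with length correction. Many have near-identical pseudogenes, between which the counting could divide reads. Ribosome biogenesis genes had 10 of 20 above, with a small median of 0.29. The mitochondrially encoded transcripts, shorter still, were on the other side, with 10 of 15 below and a median of -0.64 (-0.88 with length correction). They took 10.4% to 13.1% of the counts to genes in the IC rats and 7.74% to 8.88% in the IS rats. ND5, a subunit of respiratory complex I, was at 4786, 3624 and 4219 CPM in IC and at 1701, 1660.4 and 1402 CPM in IS (log2 fold change -1.41, SE 0.43). The nuclear genes of oxidative phosphorylation had 5 of 23 above (21.7%), close to all genes, and 2 below (8.70%), a smaller share than all genes. The sign of their median turned from 0.11 to -0.08 with length correction.

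**Figure D4:**
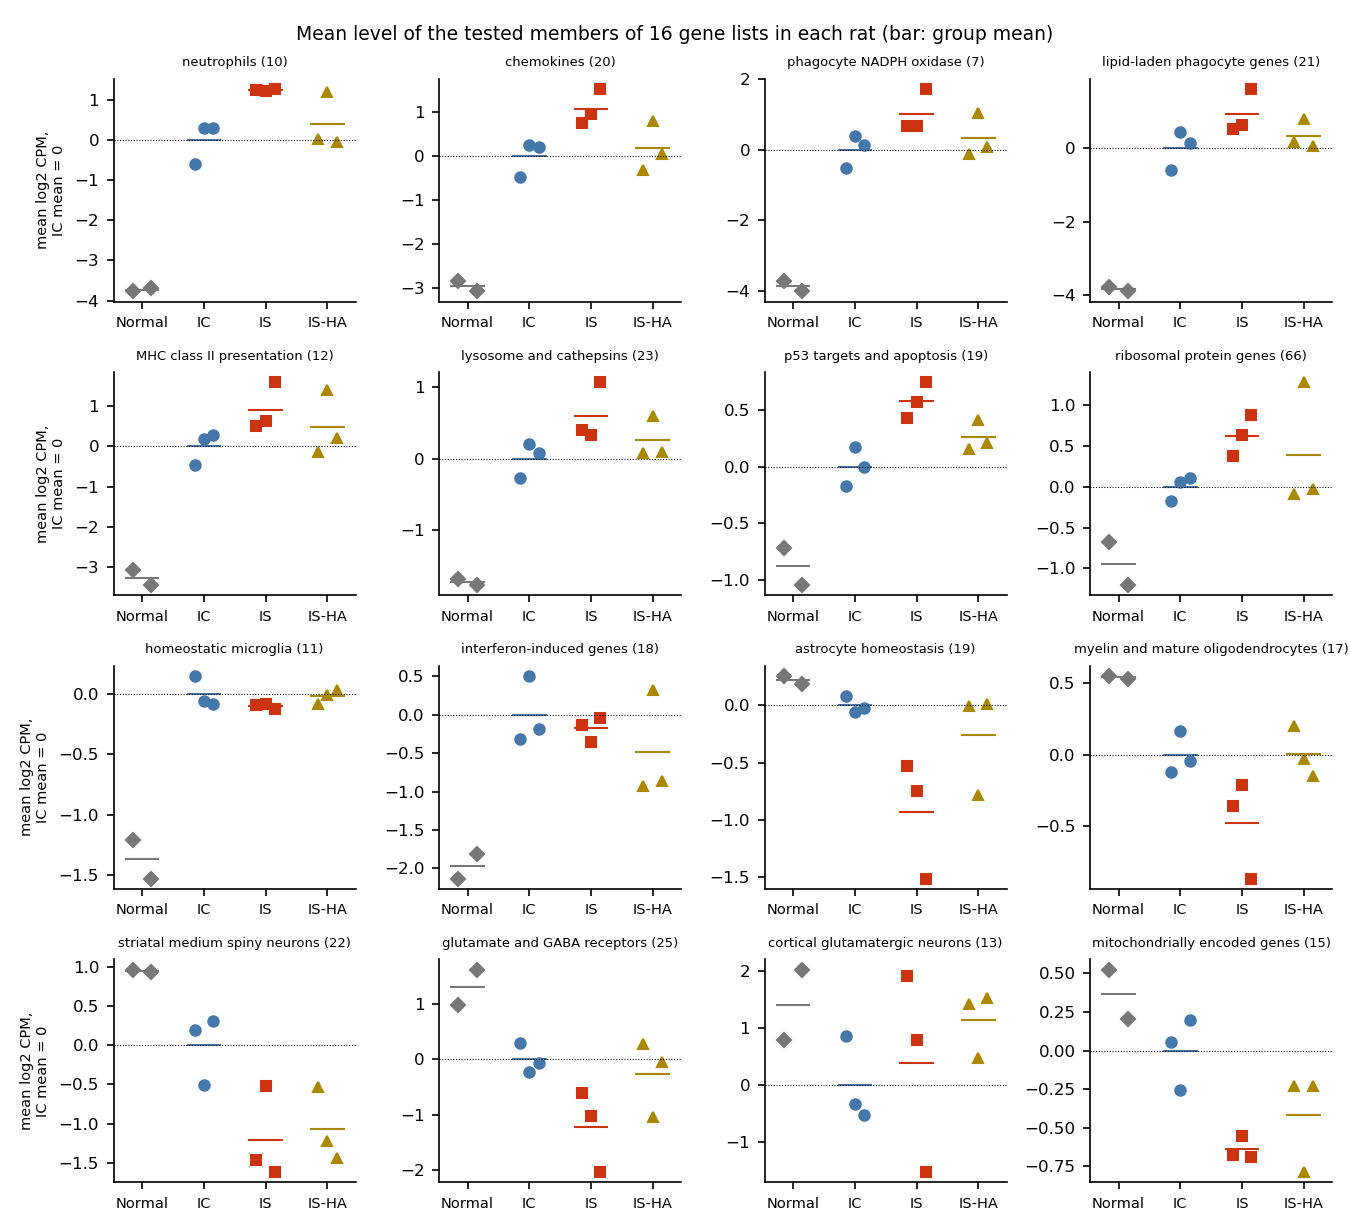
Mean log2 CPM of the tested members of 16 gene lists in each rat, relative to the mean of the IC rats (dotted line at 0), with a bar at each group mean. IS replicate 4, the rightmost square, is the extreme severe rat in most panels, and the panel of cortical glutamatergic neurons shows IS rats on both sides of the IC rats.

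Heme and hemoglobin clearance had 6 of 12 genes above and 0 below (median 0.47, 0.12 without IS replicate 4). Hmox1, heme oxygenase 1, which opens the heme ring, was at 474, 912 and 697 CPM in IC and at 1562, 1884 and 3046 CPM in IS (log2 fold change 1.64, SE 0.35). Cd163, the macrophage receptor for hemoglobin bound to haptoglobin, was at 3.73, 9.27 and 9.65 CPM in IC and at 27.1, 12.7 and 50.3 CPM in IS (log2 fold change 1.99, SE 0.55). Of the iron genes 2 of 11 were above (18.2%, close to all genes). They were Fth1, the ferritin heavy chain (1.13, SE 0.43), and Slc11a1, an iron transporter of phagosomes (1.22, SE 0.31). The list median was 0.19, 0.36 with length correction and 0.064 without IS replicate 4. Hbb, a globin gene of red cells, was at 49.2, 56.2 and 220.3 CPM in IC and at 33.8, 43.9 and 54.0 CPM in IS, so that IC replicate 4 alone stood high and the groups overlapped. All 4 erythroid genes tested overlapped, with a median of -1.02, which was -0.24 without IC replicate 4.

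Nrf2 and antioxidant genes had 11 of 21 above and 1 below (median 0.38). Txn1, thioredoxin, was at 40.8, 50.4 and 54.3 CPM in IC and at 96.5, 96.0 and 156 CPM in IS (log2 fold change 1.26, SE 0.38). The member below was Slc7a11, the cystine transporter needed for glutathione synthesis, with 25.2, 27.8 and 21.4 CPM in IC and 17.1, 7.64 and 5.51 CPM in IS (log2 fold change -1.28, SE 0.49). Hypoxia and glycolysis genes had 12 of 23 above (median 0.37), with Slc2a1, the glucose transporter, at 186, 253 and 216 CPM in IC and 283, 303 and 278 CPM in IS. Stress response genes of the unfolded protein and amino acid pathways had 12 of 21 above and 2 below (median 0.38, 0.24 without IC replicate 2), from Trib3, a pseudokinase (1.68, SE 0.48), to Ern1, the sensor IRE1 alpha (-1.15, SE 0.56), and the chaperone Hspa5 overlapped (0.35). Heat shock genes had 4 of 14 above and 2 below (median 0.15, 0.23 without IS replicate 2), the stress-inducible cytosolic chaperone Hsp90aa1 among the latter (-0.66, SE 0.34). Metallothionein and zinc transport genes had 4 of 12 above, among them Mt1 at 59.5, 85.7 and 69.6 CPM in IC and 171, 195 and 161 CPM in IS, and 3 below (median 0.31). Slc30a3, a zinc transporter of cortical synaptic vesicles, had the highest log2 fold change of this list, 2.72 (SE 0.94), and overlapped at 6.49, 2.42 and 1.61 CPM in IC and 55.8, 11.2 and 2.62 CPM in IS.

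The vascular lists differed from each other. Endothelium and barrier genes had 4 of 18 above and 4 below, 22.2% on each side and close to all genes. Their median was 0.17, and -0.024 without IC replicate 4. Eng, the TGF-beta coreceptor endoglin, had a log2 fold change of 1.05 (SE 0.38), and Abcb1a, the drug efflux pump of brain endothelium, was at 30.9, 26.3 and 22.1 CPM in IC and 13.5, 12.7 and 9.91 CPM in IS (log2 fold change -1.13, SE 0.42). The junction gene Cldn5 overlapped (0.20). Pericyte and smooth muscle genes had 7 of 13 above and 1 below (median 0.48, 0.70 with length correction). Cnn1, the contractile calponin of smooth muscle, was at 0.721, 1.91 and 1.42 CPM in IC and 3.15, 4.85 and 8.81 CPM in IS, whereas Rgs5, a pericyte regulator of G protein signaling, was at 37.4, 38.0 and 23.9 CPM in IC and 20.4, 15.1 and 15.8 CPM in IS. Fibroblast and scar matrix genes had 10 of 18 above and 1 below (median 0.62, 0.74 with length correction), with Postn, the scar matrix protein periostin, at 20.8, 34.2 and 13.3 CPM in IC and 49.2, 38.6 and 53.1 CPM in IS, while the collagen gene Col1a1 overlapped (0.46). Matrix proteases and inhibitors had 6 of 17 above and 1 below, the inhibitor Timp3 (-0.73, list median 0.54, 0.25 without IS replicate 4). Mmp3, the protease stromelysin 1, was at 0.131, 0.504 and 0.0946 CPM in IC and 0.525, 1.08 and 1.79 CPM in IS (log2 fold change 1.99, SE 0.75). IC replicates 2 and 4 were under the 3-count level, so that this fold change is uncertain. Basement membrane and angiogenesis genes had fewer without overlap than all genes, with 2 of 16 above and 1 below (median 0.22, 0.51 with length correction and 0.075 without IC replicate 4).

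At the bottom of the ranking stood the markers of striatal medium spiny neurons, with 22 of 22 log2 fold changes below 0, a median of -1.07 and 10 genes below without overlap. Drd1, the D1 dopamine receptor, was at 273, 144 and 247 CPM in IC and at 82.3, 159 and 58.2 CPM in IS, and its groups overlapped (log2 fold change -1.15, SE 0.41). Ppp1r1b, the dopamine-regulated phosphatase inhibitor DARPP-32, overlapped likewise, at 1566, 866 and 1915 CPM in IC and 616, 1239 and 539.5 CPM in IS. In both genes IS replicate 3 was above IC replicate 3, and the list mean was 0.20, -0.50 and 0.30 in the IC rats and -1.47, -0.53 and -1.62 in the IS rats. Isl1, a transcription factor of striatal projection and cholinergic neurons, did not overlap, at 3.60, 2.67 and 4.16 CPM in IC and 0.874, 1.44 and 0.688 CPM in IS (log2 fold change -1.75, SE 0.38). Drd1 and Ppp1r1b were detected in all 11 rats, with 2408 and 2021 CPM of Ppp1r1b in the Normal rats. Interneuron markers had 5 of 15 below (median -0.93, -0.59 without IS replicate 4), among them Slc5a7 and Chat, and Cck, which cortical neurons also express, was at the other end (1.68, SE 0.72).

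Postsynaptic scaffold and adhesion genes had the largest share below of the lists ranked, 20 of 25 (median -1.03, -0.87 with length correction). Dlg2, the scaffold PSD-93, was at 32.0, 18.6 and 24.7 CPM in IC and at 8.66, 6.47 and 2.62 CPM in IS (log2 fold change -2.06, SE 0.58). Glutamate and GABA receptor subunits had 17 of 25 below (median -1.07, -0.78 with length correction). Grin2a, an NMDA receptor subunit, was at 11.5, 6.25 and 5.87 CPM in IC and at 2.01, 0.899 and 0.138 CPM in IS, with 1 IS rat under the 3-count level, and the AMPA receptor subunit Gria1 was at 78.2, 43.4 and 66.3 CPM in IC and 32.4, 22.9 and 13.8 CPM in IS. Voltage-gated ion channels had 16 of 25 below, with a median of -0.97, -0.62 with length correction, and a median length of 7125 bases. Scn3a, a sodium channel, was at 40.4, 27.5 and 24.9 CPM in IC and 13.1, 10.5 and 7.30 CPM in IS. Synaptic vesicle genes had 8 of 23 below (median -0.56, -0.29 without IS replicate 4), with the active zone protein Pclo at 52.2, 31.9 and 24.6 CPM in IC and 15.5, 9.62 and 3.44 CPM in IS. Neither of the receptor and scaffold lists had a member above.

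General neuron genes had fewer without overlap than all genes, with 2 of 15 below (median -0.36, -0.076 without IS replicate 4), Map2, the dendritic microtubule protein (-1.81, SE 0.65), and Elavl3, an RNA-binding protein named here to complete the count, after its value was seen (-0.48, SE 0.26). Rbfox3, the neuronal nuclear antigen NeuN, was at 104, 64.9 and 94.4 CPM in IC and at 87.3, 76.0 and 40.1 CPM in IS, where only IS replicate 4 was under the IC rats. The cortical glutamatergic list had the second highest median, 1.27 (1.12 with length correction and 0.10 without IS replicate 2), but 0 of 13 members without overlap. Slc17a7, the vesicular glutamate transporter of cortical projection neurons, was at 144, 33.0 and 37.6 CPM in IC and at 424, 138 and 14.3 CPM in IS, so that the severe rats covered the whole range of the comparison. The list mean was 0.85, -0.33 and -0.52 in the IC rats and 1.91, 0.78 and -1.53 in the IS rats. These markers of cortex vary among the severe rats beside the neuronal lists, and their part in the neuronal results was not tested.

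The immediate early genes divided by member. Below were 7 of 19, the activity-regulated Arc, Npas4, Nr4a1 and all 4 Egr genes, and above were 5, including Fosl1, Ier3 and Atf3, of which Nr4a1 and Atf3 are named after their values were seen. Arc was at 53.4, 45.8 and 103 CPM in IC and at 8.74, 22.9 and 9.77 CPM in IS (log2 fold change -2.28, SE 0.48), and Npas4, a transcription factor induced by neuronal activity, at 4.06, 1.76 and 5.30 CPM in IC and 0.525, 1.17 and 1.10 CPM in IS. Fosl1, a subunit of AP-1, was at 1.77, 5.69 and 3.69 CPM in IC and at 10.2, 11.7 and 15.8 CPM in IS (log2 fold change 1.74, SE 0.47). Fos itself overlapped, at 20.8, 37.8 and 19.5 CPM in IC and 17.6, 15.5 and 19.8 CPM in IS. Circadian clock genes had 5 of 15 below and 0 above (median -0.49), with Per1 of the clock's negative limb at 59.1, 62.1 and 52.3 CPM in IC and 44.9, 44.0 and 34.8 CPM in IS, and the hour of collection is not given in the sources used here.

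Astrocyte genes divided into homeostatic and reactive lists. Of 19 homeostatic genes 13 were below and 0 above (median -0.63, -0.41 without IS replicate 4). Slc1a2, the main glutamate transporter, was at 101, 69.8 and 71.7 CPM in IC and at 35.2, 21.0 and 10.3 CPM in IS (log2 fold change -1.86, SE 0.50). Aqp4, the water channel of astrocyte endfeet, was at 1227, 1339.8 and 974 CPM in IC and at 782, 511 and 301 CPM in IS (log2 fold change -1.15, SE 0.42), although both Normal rats, at 721 and 822 CPM, were under the IC rats. Glul, glutamine synthetase, overlapped (0.10). Of 18 reactive genes 6 were above and 1 below (median 0.79, 0.64 with length correction), and Gfap, the intermediate filament of reactive astrocytes, overlapped at 5206, 8426 and 6014 CPM in IC and 5284, 6729 and 4343 CPM in IS.

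Myelin genes had 8 of 17 below and 0 above (median -0.38). Ermn, a cytoskeletal protein of oligodendrocytes, was at 249, 259 and 227 CPM in IC and at 146, 114 and 75.9 CPM in IS (log2 fold change -1.13, SE 0.34), whereas Mbp, myelin basic protein, overlapped (-0.24). Oligodendrocyte precursor genes had 3 of 13 below and 0 above (median -0.14, 0.042 without IC replicate 3). Gpr17, a receptor of cells about to differentiate into oligodendrocytes, was at 213, 268 and 197 CPM in IC and at 121, 123 and 69.5 CPM in IS (log2 fold change -1.11, SE 0.29).

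A few functions had medians near 0. Cholesterol synthesis had 1 of 17 above and 3 below (median -0.13, 0.01 with length correction), and autophagy had 3 of 19 above and 1 below (median 0.03, -0.05 without IC replicate 3). Ependyma and choroid plexus genes had 3 of 11 above (median 0.16, -0.14 without IS replicate 4). Housekeeping genes were above the background of all genes on one side, with 6 of 15 above, 0 below and a median of 0.24 (0.41 without IS replicate 3).

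The log2 fold change varied with gene length, taken from the deposited counts and TPM values. Across the 15742 genes, Spearman's correlation of the log2 fold change with gene length was -0.31, a description in which genes share the same 6 rats. Among the 3151 shortest genes, of at most 1710 bases, the median log2 fold change was 0.27 and 31.9% had all IS rats above, and among the longest, from 4985 bases, the median was -0.27 and 35.6% had all IS rats below. Each IS rat showed the trend, with medians of -0.18, -0.28 and -0.33 in these longest genes relative to the IC mean, and IS-HA replicate 2, on which the adjusted test turned, was at -0.47 there. After a correction that removes the trend from every rat, 3078 genes had all IS rats above and 2402 below. Before correction, the 15 highest genes had a median length of 1868 bases and the 15 lowest one of 4443. The named genes followed through the alternative fits were also refitted with this correction. All 139 of them kept their direction, and none came to pass an adjusted p under 0.05 in edgeR's test. How far the correction changed the size of each fold change is not described here, and whether length caused part of the single-gene differences was not tested.

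**Figure D5:**
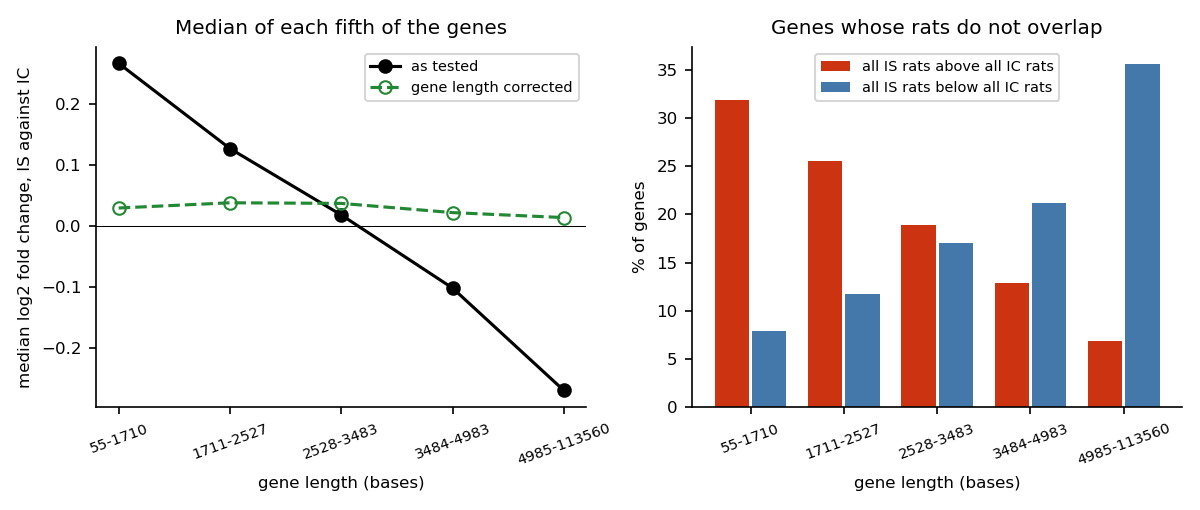
Left, median log2 fold change of IS against IC in 5 equal groups of genes by length in bases, as tested and after the correction for gene length. Right, percentage of genes in each group with all IS rats above or below all IC rats, which runs from 31.9% above among the shortest to 35.6% below among the longest.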

How the data were processed

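Poly(A)-selected, stranded RNA libraries of striatum from 11 rats were sequenced by the authors with paired reads of 150 bases. The deposited table holds raw read counts per gene and the TPM values that the authors made from them, for 30560 genes and with no filter. The submitters' processing notes name fastp 0.20.0, FastQC 0.11.9, HISAT2 2.1.0, SAMtools 1.9, featureCounts, DESeq2 and the build mRatBN7.2. Whether strand was used in counting is not given in the sources used here, so that overlapping antisense genes and near-identical copies remain uncertain.

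Counts were fitted with edgeR 4.0.16 in R 4.3.3 (TMM, filterByExpr, quasi-likelihood F test, Benjamini-Hochberg adjustment) over 4 groups and 11 rats, with the contrast IS minus IC. This left 15742 genes. Standard errors were taken from the fold change and its F statistic. Rats did not overlap where all 3 normalized CPM values of IS were above, or all below, those of IC. DESeq2 1.42.0 and limma 3.58.1 gave alternatives, and the fits were tested on simulated counts. Gene length was recovered from the ratio of deposited counts to TPM, and the length correction removed each rat's smooth trend on it. Library totals ran from 7448205 to 18817645 counts in the compared rats, which sets the precision of low genes. Intervals other than the standard error were not computed.

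Named genes were the 15 with the largest fold change and the 10 with the smallest p in each direction (without overlap, unadjusted p under 0.05, mean of at least 5 CPM, with a symbol), of each list the first 3 members and the 2 highest and 2 lowest, and the 10 smallest p of DESeq2 in each direction. The comparison, the lists and this rule were chosen with earlier results of these data known. Of 967 listed genes, 928 were matched to the table and 890 of these passed the filter and were tested. None of the 8 nuclear-retained long RNAs listed was among the genes tested. Mitochondrially encoded genes were taken by all of their symbols, since the planned prefix found only the ribosomal RNAs. List means were of log2 CPM with a prior count of 2. Proteasome genes were left out of the lists. Promoters came from RefSeq (GRCr8), and no coordinates of genes are given, since the counts use another build.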

Additional observations from a re-analysis of the deposited data

How the results depend on the processing

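The count of 0 genes higher and 0 lower by edgeR's adjusted p depended on the method. DESeq2 called 256 higher and 347 lower, voom with a quality weight per rat 338 and 442, and edgeR without the IS-HA group 181 and 411. Leaving out each rat in turn gave 0 to 348 higher and 0 to 616 lower, with the upper ends without IS-HA replicate 2 and 0 without any other rat. The other scalings, filters, fold cutoffs, robust dispersion, limma on TPM, the fit of IC and IS alone, thinning and gene length correction gave 0 in both directions. The 530 higher and 810 lower genes at an unadjusted p under 0.05 became 322 and 532 in limma on log2(TPM + 1) and 279 and 522 with at least 10 counts in every rat. Leaving out each rat gave 279 to 745 higher, from without IC replicate 2 to without IC replicate 3, and 455 to 1118 lower, from without IS replicate 4 to without IS replicate 2. Genes with all IS rats above ran from 3021 to 4246 and below from 2823 to 4269 when a rat was left out, where fewer rats make such a separation easier. The cause of the other differences was not tested.

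Of the 54 list medians, that of endothelium and barrier genes turned to -0.024 without IC replicate 4 (0.22 at most over the rats left out), and that of nuclear oxidative phosphorylation genes to -0.077 with gene length correction and to -0.069 with replicate block and gene length correction. Of genes whose rats overlapped, the log2 fold change of Mmp8, -0.04, was 0.14 in thinned libraries and -0.45 to 0.21 with single rats left out, and that of Cybb, 0.26, was -0.0075 in voom and -0.13 to 0.56. Of 54 list medians, 8 changed sign under at least 1 alternative. Besides the pair above, these were interferon-induced genes (-0.28, 0.14 without IC replicate 3), homeostatic microglia (0.09, -0.21 with at least 10 counts in every rat, -0.017 thinned, -0.016 and -0.0021 without IC replicates 2 and 4), oligodendrocyte precursors, ependyma and choroid plexus, cholesterol synthesis and autophagy. Without IS replicate 4 the medians of many immune lists were lower, as given with some of them. Others that fell were B cells (0.52 to 0.044), complement (0.10 to 0.0093), chemokines (1.17 to 0.84) and alternative macrophage activation (1.13 to 0.83). So did monocyte and macrophage markers (0.97 to 0.69), efferocytosis (0.71 to 0.52), annexin and S100 (1.01 to 0.79) and inflammatory cytokines (0.93 to 0.73). The neutrophil median rose from 1.46 to 1.55. Over all alternatives, list medians moved by more than the spread between rats in 40 cases and by less in 1469. Genes named here passed an adjusted p under 0.05 in 336 cases, in the direction reported, against 3506 without such a change and 7 reversed. All of the 336 were in DESeq2 (80), voom (91) and edgeR without IS-HA replicate 2 (92) or without the IS-HA group (73). Many of these genes were named for their fold or p in the same rats. No scaling moved the median of all genes by 0.1. With the replicate block edgeR called 0 genes in either direction, and 445 higher and 738 lower at an unadjusted p under 0.05. The numbers are not stated to pair the rats, and the correlation of same-numbered IS and IC rats was 0.356, -0.340 and 0.0848 for replicates 2, 3 and 4, so that the block was not read further. The smallest library of the compared rats, IS replicate 4, held 7448205 counts. With 3 rats a group, a difference in a gene near 3 counts, 0.159 to 0.403 CPM in these rats, could not be detected.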
